A study of Mus musculus with 8 samples.

Results

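Chemokines are small secreted proteins that draw leukocytes along a gradient, and 9 of them that are known from fat tissue, Ccl2, Ccl6, Ccl7, Ccl8, Ccl9, Ccl11, Cxcl1, Cxcl12 and Cxcl14, were examined in mice that lack a receptor for lysophosphatidic acid. The members were every probe set that the platform annotation gives to these 9 of 18193 named genes, 16 of 45037 probe sets. RNA came from the epididymal depot of white fat, which lies next to the testis, of 4 LPA4-KO mice (Lpar4 -/Y, deficient in lysophosphatidic acid receptor 4) and 4 wild-type (WT) mice. All 8 mice were males of the C57BL/6 background, littermates aged 12 weeks on standard chow, and each gave 1 Affymetrix 3′ expression array. The sources used here do not give the part of Lpar4 that was removed. The comparison asks how the expression of these genes differs in the fat pad when the receptor is deficient.

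Chemokines are named after the cysteines near the start of the mature protein, side by side in the CC group and with a residue between them in the CXC group, and they act through G protein-coupled receptors on the cells they attract. In fat tissue they come from adipocytes, stromal cells, vessels and the resident leukocytes. They are best known there for the recruitment of monocytes that become macrophages. Atypical receptors bind the same ligands and clear or store them without the usual signal.

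The deposited values were used as log2 values, and differences are LPA4-KO minus WT with the SE of the fit, while means carry the SD of 4 arrays. Most of the table is nearly constant: 7584 of 45037 probe sets (16.8%) spanned over 0.1 log2 across the 8 arrays and are called varying here, a limit set with the values known. A flat value here does not show that a gene kept its level, because signal above background is not given. At 1 of its 3 probe sets, 1452424_at, Lpar4 averaged 5.80 ± 0.05 on LPA4-KO arrays against 6.52 ± 0.03 on WT arrays (SD, n = 4 each). The difference was -0.71 ± 0.03 (limma adjusted p = 0.0040, and adjusted p = 0.050 without WT replicate 4). At the other 2 it was not called and the LPA4-KO means were the higher ones. The differences there were 0.68 ± 0.24 at 1434186_at and 0.48 ± 0.25 at 1439665_at (limma adjusted p = 0.24 and 0.41). Adipocyte markers were at 11.72 to 11.79 in LPA4-KO and 11.58 to 11.85 in WT arrays, as the mean of 7 varying genes, while all 6 measured markers of the epididymis were nearly constant.

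None of the 16 chemokine probe sets passed limma's test between the genotypes over all probe sets, with adjusted p from 0.22 to 0.98. Of all probe sets 0.668% were called at an adjusted p under 0.05, 196 higher (0.435%) and 105 lower (0.233%) in LPA4-KO, a split that was 24945 higher to 1330 lower after quantile normalization. Without WT replicate 4 limma called 0 probe sets, with 6658 at an unadjusted p under 0.05. The count fell without any other array too, to 28, 8, 14 and 21 without LPA4-KO replicates 1, 2, 3 and 4. It was 112, 14 and 15 without WT replicates 1, 2 and 3. At an unadjusted p under 0.05 there were 2 chemokine probe sets, 1 each of Ccl6 and Cxcl12, where 16.1% of all probe sets passed. The 10 varying probe sets belonged to 6 genes, Ccl6, Ccl8, Ccl9, Ccl11, Cxcl1 and Cxcl12. Of these 10, 9 had a lower mean in LPA4-KO and 1 had a higher mean, with a median difference of -0.20, where 57.3% of all varying probe sets had a lower mean and their median was -0.06. The size of the differences had a median of 0.20 in the 10 chemokine probe sets and 0.18 in all varying probe sets. The groups did not overlap in 1 of the 10, LPA4-KO lower, against 28.4% of all varying probe sets, 15.9% with LPA4-KO lower; over all probe sets the shares were 11.8% and 5.58%. When the varying probe sets were fitted alone 1 of the 10 was called, lower in LPA4-KO, against 18.7% of all varying probe sets in either direction, 8.14% higher and 10.5% lower.

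**Figure D1:**
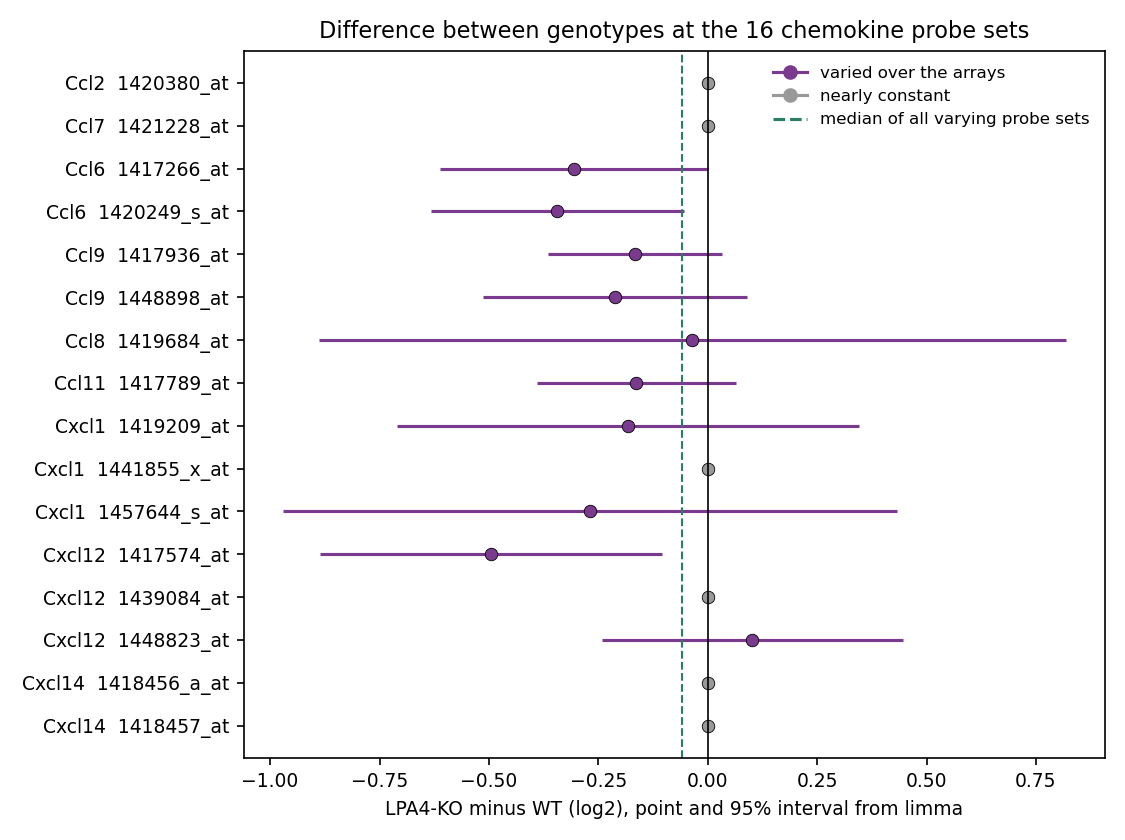
Difference LPA4-KO minus WT (log2, horizontal axis) at each of the 16 chemokine probe sets, with the 95% interval from limma; the dashed line marks the median of all varying probe sets, -0.06. Of the varying probe sets 9 lie left of 0, the intervals of 2 (1 of Ccl6, 1 of Cxcl12) leave out 0, and the 6 nearly constant ones sit at 0.

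Ccl6 and Ccl9 are neighbouring genes on mouse chromosome 11 whose products, known from the mouse, are made by myeloid cells and act on the receptor Ccr1. Both had lower means in LPA4-KO fat at each of their probe sets without passing the test. At Ccl6 1417266_at the LPA4-KO arrays read 10.96, 11.18, 10.95 and 11.09, and the WT arrays 11.38, 11.18, 11.68 and 11.16. LPA4-KO replicate 2 reached the level of WT replicates 2 and 4, and WT replicate 3 was the highest of the 8. LPA4-KO arrays averaged 11.04 ± 0.11 against 11.35 ± 0.24 on WT arrays, a difference of -0.31 ± 0.13 (95% interval -0.61 to 0.00073, limma adjusted p = 0.31). At Ccl6 1420249_s_at, whose suffix marks probes that may match several transcripts, the LPA4-KO arrays read 9.61, 9.88, 9.40 and 9.60 and the WT arrays 9.95, 10.02, 10.13 and 9.76. Here LPA4-KO replicate 2 alone lay above a WT array, again replicate 4. The difference was -0.34 ± 0.12 (95% interval -0.63 to -0.06, limma adjusted p = 0.24).

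Ccl9 had smaller differences. At 1417936_at it was at 10.15, 10.24, 9.95 and 10.003 in LPA4-KO mice, against 10.30, 10.18, 10.39 and 10.15 in WT mice. At 1448898_at it was at 8.66, 8.79, 8.47 and 8.60 in LPA4-KO mice, against 8.98, 8.71, 9.08 and 8.61 in WT mice. In both, LPA4-KO replicate 3 was the lowest and WT replicate 3 the highest array, and the groups overlapped. The differences were -0.17 ± 0.08 (95% interval -0.37 to 0.03, limma adjusted p = 0.39) at 1417936_at and -0.21 ± 0.13 (95% interval -0.51 to 0.09, limma adjusted p = 0.47) at 1448898_at.

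Because Ccl6 and Ccl9 sit next to each other on the chromosome, the 250 bases before their RefSeq starts (assembly GRCm38.p6) are shown, 5′ to 3′ on the gene's strand, with matches to 5 searched motifs in capitals.
Ccl6, chr11:83593088-83593337, - strand: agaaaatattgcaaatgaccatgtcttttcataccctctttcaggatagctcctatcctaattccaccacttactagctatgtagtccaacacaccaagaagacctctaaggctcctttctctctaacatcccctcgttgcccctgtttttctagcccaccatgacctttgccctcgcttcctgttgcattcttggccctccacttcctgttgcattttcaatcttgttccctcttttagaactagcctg
Ccl9, chr11:83578637-83578886, - strand: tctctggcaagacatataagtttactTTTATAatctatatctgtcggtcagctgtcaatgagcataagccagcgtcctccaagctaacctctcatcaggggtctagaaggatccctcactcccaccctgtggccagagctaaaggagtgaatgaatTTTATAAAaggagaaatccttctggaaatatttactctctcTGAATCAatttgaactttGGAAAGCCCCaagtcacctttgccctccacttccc
The motifs were the TATA box TATAAA, the AP-1 motif TGANTCA, the PU.1 motif GAGGAAGT, the C/EBP motif TTGCNNAA and the NF-kappaB consensus, searched on both strands. Ccl9 held an AP-1 match that begins 53 bases before the start, an NF-kappaB match 35 bases before it, and TATA matches at 224, 94 and 92 bases, the last 2 of them overlapping. The Ccl6 window held none of the 5. Of 32851 windows of this length in the RefSeq table, 12.4% held TATAAA, 6.75% the AP-1 motif, 2.44% the PU.1 motif, 9.56% the C/EBP motif and 7.25% the NF-kappaB consensus. Of the 9 chemokines 6 had a window, and in these TATAAA stood in Ccl8 and Ccl9, the AP-1 motif in Ccl9 and the NF-kappaB consensus in Ccl9 and Cxcl1. A match describes the letters of the window only.

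Ccl8 and Ccl11 lie in another run of chemokine genes on chromosome 11, which the RefSeq table orders as Ccl2, Ccl7, Ccl11, Ccl12, Ccl8 and Ccl1. Ccl11, or eotaxin, attracts eosinophils through Ccr3. At 1417789_at Ccl11 was at 9.66, 9.69, 9.67 and 9.50 in LPA4-KO mice, against 9.90, 9.53, 9.83 and 9.90 in WT mice. WT replicate 2 lay among the LPA4-KO arrays and the other WT arrays lay above all of them. The difference was -0.16 ± 0.09 (95% interval -0.39 to 0.06, limma adjusted p = 0.46). Ccl8, a ligand of Ccr8 in the mouse, was the least certain of the CC chemokines. Its probe set 1419684_at read 7.83, 8.04, 8.18 and 7.53 in LPA4-KO mice and 8.13, 7.17, 7.66 and 8.77 in WT mice. The WT arrays enclosed all LPA4-KO arrays. The difference of -0.03 ± 0.35 has a 95% interval from -0.89 to 0.82 (limma adjusted p = 0.98), and it turned positive without LPA4-KO replicate 4 (0.09), without WT replicate 1 (0.03) and without WT replicate 4 (0.24).

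Ccl2 and Ccl7, ligands of the monocyte receptor Ccr2, and Cxcl14, a chemokine made constitutively by many epithelia, could not be assessed. Their 4 probe sets, the Cxcl12 probe set 1439084_at and the Cxcl1 probe set 1441855_x_at were the 6 nearly constant ones. None of the 6 spanned more than 0.00083 log2 over the 8 arrays, and none of their differences exceeded 0.00016 log2, with limma adjusted p of at least 0.65. Ccl2 read 6.74 and Ccl7 6.33 on all 8 arrays.

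**Figure D2:**
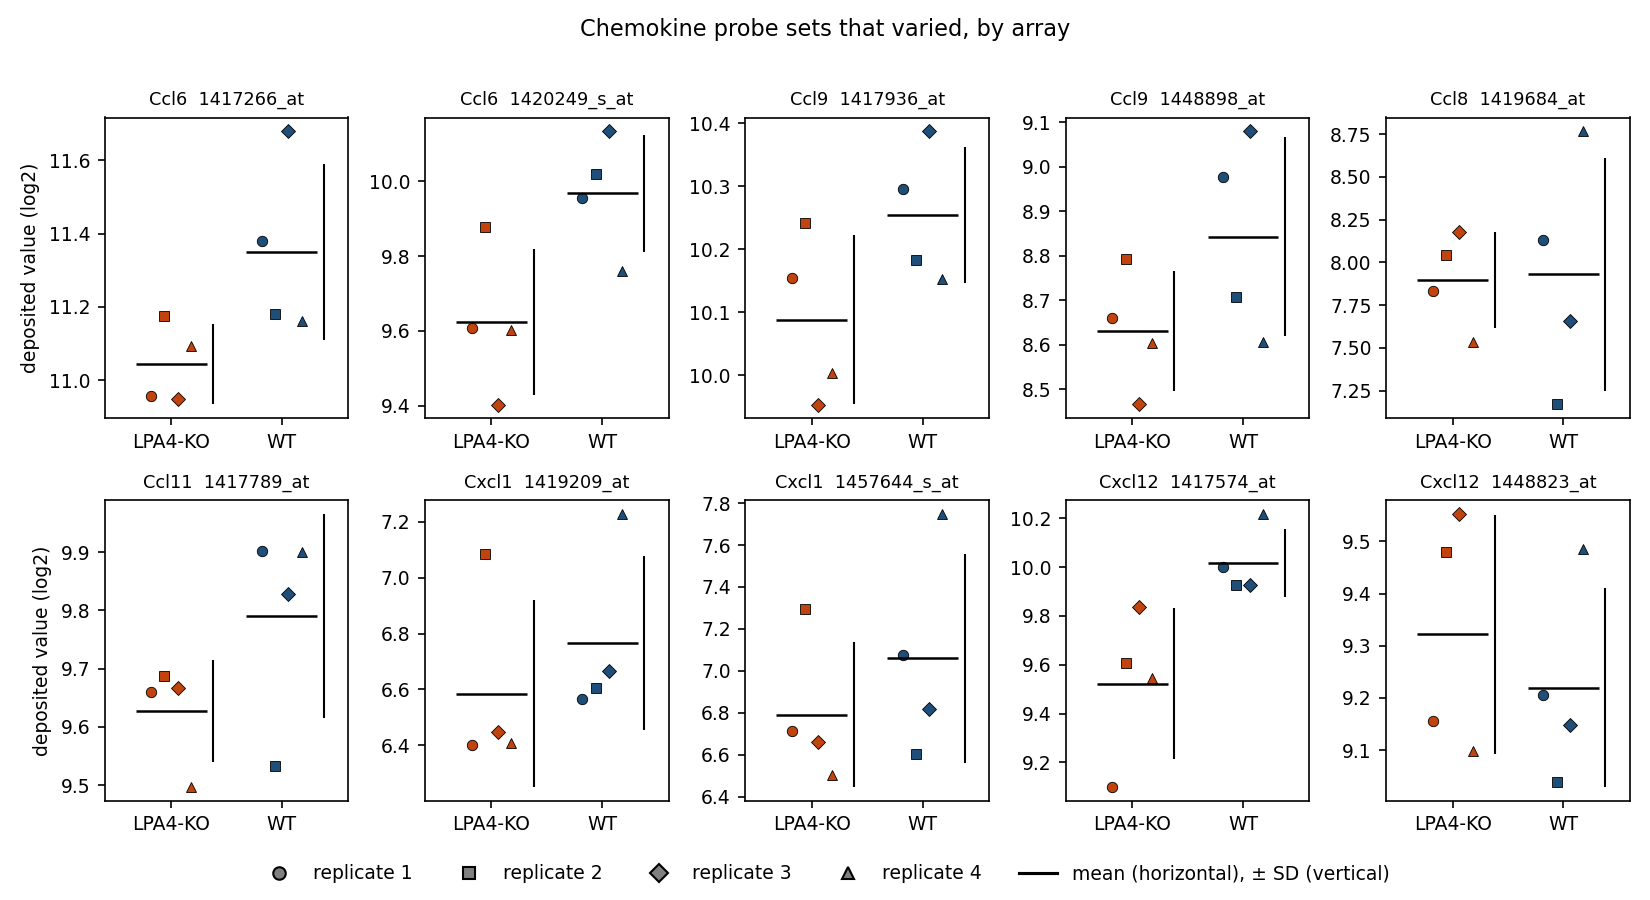
Deposited log2 value (vertical axis, its own scale in each panel) of the 10 varying chemokine probe sets in the 4 LPA4-KO and 4 WT arrays; symbols are replicates, horizontal lines means and vertical lines ± SD. The groups are apart only at Cxcl12 1417574_at, and Ccl8 and Cxcl1 spread widely within a genotype.

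Cxcl1, a CXC chemokine that draws neutrophils through Cxcr2 and a textbook target of NF-kappaB, differed more between animals of a genotype than between genotypes. At 1419209_at it was at 6.40, 7.09, 6.45 and 6.41 in LPA4-KO mice, against 6.57, 6.61, 6.67 and 7.23 in WT mice. At 1457644_s_at it was at 6.71, 7.29, 6.66 and 6.50 in LPA4-KO mice, against 7.07, 6.60, 6.82 and 7.75 in WT mice. In each genotype 1 animal stood high at both probe sets, LPA4-KO replicate 2 and WT replicate 4. The differences were -0.18 ± 0.22 (95% interval -0.71 to 0.35, limma adjusted p = 0.76) at 1419209_at and -0.27 ± 0.29 (95% interval -0.97 to 0.43, limma adjusted p = 0.72) at 1457644_s_at. Without WT replicate 4 they were -0.03 at 1419209_at and -0.04 at 1457644_s_at. Without LPA4-KO replicate 2 they were larger, -0.35 at 1419209_at and -0.44 at 1457644_s_at, and neither was called. The 250 bases before the RefSeq start of Cxcl1 are shown because they carry the NF-kappaB consensus, in capitals.
Cxcl1, chr5:90890995-90891244, + strand: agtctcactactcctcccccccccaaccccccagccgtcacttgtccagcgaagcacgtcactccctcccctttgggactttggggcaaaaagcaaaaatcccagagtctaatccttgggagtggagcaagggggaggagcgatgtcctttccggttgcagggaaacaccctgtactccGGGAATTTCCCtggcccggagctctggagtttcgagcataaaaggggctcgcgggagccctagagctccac
The capitals hold 2 overlapping matches, which begin 71 and 70 bases before the start.

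Cxcl12 keeps stem cells and leukocytes in place through Cxcr4 and is made by stromal cells, and its 2 varying probe sets gave opposite differences. At 1417574_at the LPA4-KO arrays read 9.10, 9.61, 9.84 and 9.55, and the WT arrays 10.002, 9.92, 9.93 and 10.22. Every LPA4-KO array lay below every WT array. LPA4-KO arrays averaged 9.52 ± 0.31 against 10.02 ± 0.14 on WT arrays, 1.41-fold lower (difference -0.49 ± 0.16, 95% interval -0.89 to -0.10), with limma adjusted p = 0.22 over all probe sets and adjusted p = 0.044 with the varying probe sets fitted alone. Leaving out any 1 array but LPA4-KO replicate 3 ended the call in the varying fit (limma adjusted p from 0.065 to 0.094), and the difference was smallest, -0.35, without LPA4-KO replicate 1. At 1448823_at the LPA4-KO arrays read 9.16, 9.48, 9.55 and 9.10 and the WT arrays 9.21, 9.04, 9.15 and 9.49. The groups overlapped throughout, with a difference of 0.10 ± 0.14 (95% interval -0.24 to 0.45, limma adjusted p = 0.80).

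The difference between the 2 Cxcl12 probe sets was therefore taken within each array. As 1417574_at minus 1448823_at it ran from -0.06 to 0.45 in LPA4-KO and from 0.73 to 0.89 in WT mice, with no overlap. The genotype difference was thus 0.60 log2 more negative at 1417574_at (difference of differences -0.60, exact two-sided permutation p = 0.029, the smallest that 4 against 4 arrays can give). Over the 4 genes with 2 varying probe sets, compared after their values were seen, the adjusted p was 0.11, and for Ccl6, Ccl9 and Cxcl1 the differences of differences were 0.04, 0.05 and 0.09 (exact permutation p = 0.71, 0.46 and 0.54). As a description over the 8 arrays, the 2 Cxcl12 probe sets had r = 0.26, and r = 0.76 around the genotype means. The annotation draws them from different sequence records, and their places on the Cxcl12 transcripts were not tested. The 250 bases before the RefSeq start of Cxcl12, shown because 1417574_at had the largest difference of the chemokine probe sets, held none of the 5 motifs.
Cxcl12, chr6:117168285-117168534, + strand: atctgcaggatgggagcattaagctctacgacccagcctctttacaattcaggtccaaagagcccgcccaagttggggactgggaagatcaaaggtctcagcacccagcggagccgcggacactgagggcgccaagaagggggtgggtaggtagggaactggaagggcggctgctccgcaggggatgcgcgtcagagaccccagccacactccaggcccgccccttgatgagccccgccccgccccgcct

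**Figure D3:**
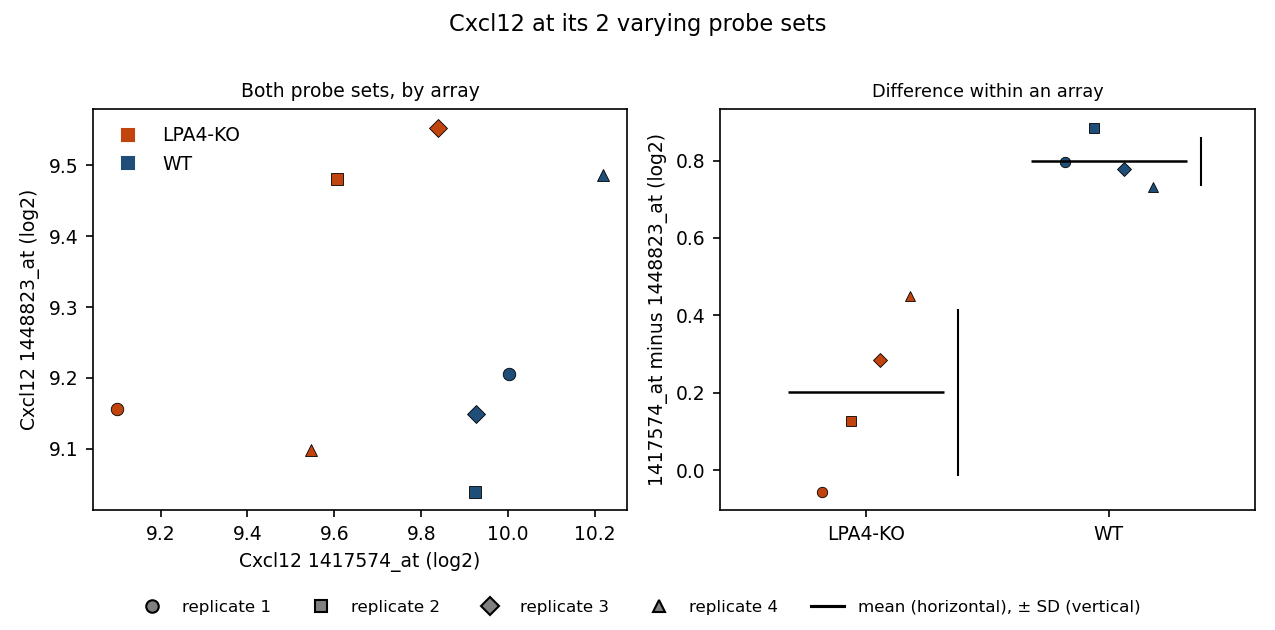
Cxcl12 at its 2 varying probe sets. Left, 1448823_at against 1417574_at (log2) for each of the 8 arrays; right, the difference within each array by genotype, with mean and SD, from -0.06 to 0.45 in LPA4-KO and from 0.73 to 0.89 in WT.

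By the likeness rule, the genes whose representative probe set followed Cxcl12 1417574_at most closely over the 8 arrays, among 3937 varying named genes, were Hoxd8 (Pearson r = 0.96), which encodes a homeodomain transcription factor, Rassf5 (r = 0.95), which encodes a Ras-binding protein, and Nr1d1 (r = 0.95), which encodes the circadian repressor REV-ERB alpha. They were picked from that many genes over 8 arrays, so these correlations only describe. None of the 3 passed limma over all probe sets (differences -0.27, -0.26 and -0.44), and in the varying fit Rassf5 (adjusted p = 0.047) and Nr1d1 (adjusted p = 0.029) were called and Hoxd8 (adjusted p = 0.095) was not.

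The highest array was not the same for all chemokines. WT replicate 3 was the highest array at all 4 probe sets of Ccl6 and Ccl9, and WT replicate 4 at 4 others, Ccl8, both of Cxcl1 and Cxcl12 1417574_at. Among the 15 pairs of the 6 genes, each by its varying probe set with the highest mean, Ccl6 and Ccl9 had Pearson r = 0.84 (exact permutation p = 0.0068, adjusted p = 0.10) and Spearman rho = 0.90 (exact permutation p = 0.0046, adjusted p = 0.068). Without the 2 arrays farthest from the Ccl6 median r was 0.63, and around the genotype means it was 0.73. Ccl8 and Cxcl1 had r = 0.81 (exact permutation p = 0.014, adjusted p = 0.10) and rho = 0.69 (exact permutation p = 0.069, adjusted p = 0.21). Without the 2 arrays farthest from the Ccl8 median r was 0.54, and around the genotype means 0.85. No pair passed the adjustment over the 15, by r or by rho.

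Marker lists of leukocytes and stroma give the setting of these values. Of all probe sets 16.1% had an unadjusted p under 0.05. Of all varying ones 57.3% had a lower mean in LPA4-KO, and the varying fit called 10.5% lower and 8.14% higher. All 19 varying probe sets of the macrophage list had lower means in LPA4-KO (median -0.28), and none of its 22 probe sets was called by limma over all probe sets, 7 having an unadjusted p under 0.05, while the varying fit called 4 lower. The mean of its 14 varying genes ran from 9.42 to 9.66 in LPA4-KO and from 9.57 to 9.93 in WT arrays, and Mpeg1, which encodes a pore-forming protein of macrophages, had the smallest p (-0.31 ± 0.05, limma adjusted p = 0.066). Fcgr1, a receptor for antibodies in the same list, was nearly constant. This mean had r = 0.88 with Ccl9 (exact permutation p = 0.0039, adjusted p = 0.045 over 18 relations; rho = 0.83, exact permutation p = 0.015, adjusted p = 0.069) and r = 0.83 with Ccl6 (exact permutation p = 0.0050, adjusted p = 0.045; rho = 0.83, exact permutation p = 0.015, adjusted p = 0.069). Ccl11 had r = 0.85 with the same mean (exact permutation p = 0.011, adjusted p = 0.068; rho = 0.83, exact permutation p = 0.015, adjusted p = 0.069), 0.79 without the 2 arrays farthest from the median and 0.80 around the genotype means. Ccl6 and Ccl9 passed the adjustment by r, Ccl11 did not, and none of the 3 passed by rho. Whether these correlations differ was not tested. The permutations treated all arrays alike, so a genotype difference shared by both values enters these p-values. The 18 relations cover only the macrophage, progenitor and fibroblast, and mesothelial lists, whose varying probe sets all had lower means in LPA4-KO. The adjustment does not allow for the choice of these lists. Around the genotype means no p was computed. Ccl8 had r = 0.31 with the macrophage mean (exact permutation p = 0.46, adjusted p = 0.55). Cxcl1 had r = 0.59 (exact permutation p = 0.12, adjusted p = 0.22), and 0.92 without the 2 farthest arrays. Without the 2 arrays farthest from the macrophage median r was 0.74 for Ccl9 and 0.58 for Ccl6, and around the genotype means 0.81 and 0.65. With Cxcl12 1417574_at the macrophage mean had r = 0.52 (exact permutation p = 0.18, adjusted p = 0.27; rho = 0.74, exact permutation p = 0.046, adjusted p = 0.12), which was 0.44 without the 2 arrays farthest from its median and -0.13 around the genotype means. In whole tissue, fewer cells of a type and less RNA per cell cannot be told apart, and the part of macrophage content in the Ccl6, Ccl9 and Ccl11 values was not tested.

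**Figure D4:**
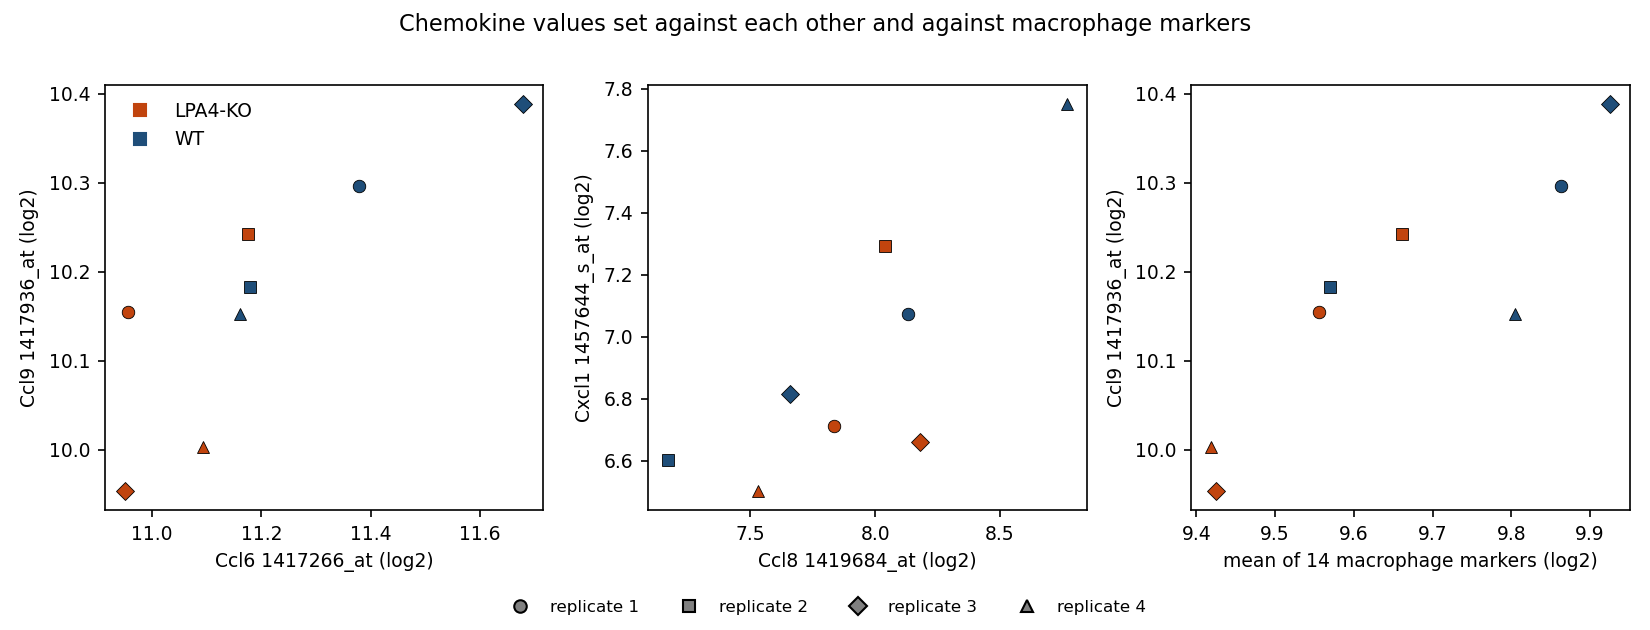
Values of the 8 arrays (log2 on all axes) for Ccl9 against Ccl6, Cxcl1 against Ccl8, and Ccl9 against the mean of 14 macrophage markers; colours are genotypes and symbols replicates. The left and right panels rise together (r = 0.84 and 0.88), with WT replicate 3 at the top, and in the middle panel WT replicate 4 stands highest on both axes.

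Of stromal lists, all 21 varying probe sets of progenitor and fibroblast markers had lower means in LPA4-KO (median -0.43). Of its 26 probe sets 2 fell over all probe sets, Dpt (-0.43 ± 0.04, limma adjusted p = 0.028), which encodes a matrix protein that binds decorin, and 1 probe set of Dcn (-0.57 ± 0.08, limma adjusted p = 0.045), which encodes decorin itself. Both calls ended without WT replicate 4, where limma called 0 probe sets with 6658 at an unadjusted p under 0.05. With another array left out limma called at most 112 over all probe sets. With no array left out it called 0.233% of all probe sets lower. Of all varying probe sets the varying fit called 10.5% lower, and of the 21 varying ones of this list 11. The mean of its 13 genes ran from 9.39 to 9.76 in LPA4-KO and from 9.94 to 10.21 in WT arrays, without overlap. It had r = 0.62 with Cxcl12 1417574_at (exact permutation p = 0.098, adjusted p = 0.20; rho = 0.74, exact permutation p = 0.046, adjusted p = 0.12), 0.79 without the 2 arrays farthest from its median and -0.06 around the genotype means. With Ccl9 it had r = 0.78 (exact permutation p = 0.023, adjusted p = 0.082; rho = 0.74, exact permutation p = 0.046, adjusted p = 0.12), 0.49 without the 2 farthest arrays and 0.62 around the genotype means. With Ccl6 it had r = 0.76 (exact permutation p = 0.028, adjusted p = 0.085; rho = 0.86, exact permutation p = 0.011, adjusted p = 0.069), 0.79 without the 2 farthest arrays and 0.48 around the genotype means. The part of stromal content in the chemokine values was not tested. All 19 varying mesothelial probe sets had lower means as well (median -0.36), with 0 called by limma over all probe sets, 8 at an unadjusted p under 0.05 and 4 called lower in the varying fit, and Gpm6a had the smallest p (-1.06 ± 0.29, limma adjusted p = 0.16); the mean of 12 genes ran from 7.36 to 7.85 in LPA4-KO and from 7.67 to 8.51 in WT arrays. This mean had r = 0.77 with Ccl6 (exact permutation p = 0.022, adjusted p = 0.082, and rho = 0.71, exact permutation p = 0.058, adjusted p = 0.12), 0.59 without the 2 farthest arrays and 0.57 around the genotype means. With Ccl9, Cxcl12, Ccl11, Cxcl1 and Ccl8 its r was 0.65, 0.58, 0.30, -0.016 and -0.27. In the neutrophil list 2 of 7 probe sets varied, in the eosinophil and mast cell list 3 of 9, and in the lymphocyte list 3 of 16. All 8 of these had lower means in LPA4-KO. Limma called none of the 3 lists' probe sets in either fit, and the 2 with an unadjusted p under 0.05, of Cd3e (higher) and Cd4 (lower), were nearly constant. The neutrophil genes Mpo, Ngp, Elane, Camp and Csf3r and the eosinophil genes Prg2, Epx, Siglecf and Il5ra were nearly constant. The smallest p among these 3 lists belonged to S100a9 (-0.07 ± 0.04) for neutrophils and to the nearly constant Epx and Cd3e for the others. Of the remaining lists none was called by limma over all probe sets. An unadjusted p under 0.05 was found at 1 of 13 adipocyte, 3 of 14 endothelial, 1 of 17 mural, 1 of 2 red blood cell and 1 of 6 epididymis probe sets, nearly constant ones included. The varying fit called Acta2 lower and Alas2 higher. Retn (0.18 ± 0.06) among adipocyte, Eng (-0.25 ± 0.07) among endothelial, Acta2 (-1.31 ± 0.21, limma adjusted p = 0.063) among mural and Alas2 (0.48 ± 0.13) among red blood cell markers had the smallest p, and in the epididymis list it was the nearly constant Rnase10.

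Of 26 probe sets for 16 chemokine receptor genes 5 varied, those of Ccr1, Ccr2 and Cxcr4, with a median difference of -0.61. None of the 26 was called by limma over all probe sets, 2 having a higher and 5 a lower mean at an unadjusted p under 0.05, nearly constant ones included, and the varying fit called 1 higher and 4 lower. Ccr2, the monocyte receptor for Ccl2 and Ccl7, had lower means in LPA4-KO at all 3 of these probe sets. At 1421186_at it was at 7.84, 8.14, 7.61 and 7.48 in LPA4-KO mice, against 8.27, 8.60, 8.71 and 8.36 in WT mice, so that the groups did not overlap. The difference was -0.72 ± 0.17 (limma adjusted p = 0.12, and adjusted p = 0.019 with the varying probe sets fitted alone). At 1421188_at and 1421187_at the Ccr2 differences were -0.81 ± 0.21 and -0.46 ± 0.13 (limma adjusted p = 0.15 and 0.16). Ccr1, the receptor of Ccl6 and Ccl9, differed by -0.61 ± 0.19 at 1419609_at (limma adjusted p = 0.20, and adjusted p = 0.037 in the varying fit), without overlap between the groups. The other Ccr1 probe set, 1419610_at (difference -0.00024), and a further Ccr2 probe set, 1460067_at, were nearly constant.

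Cxcr4, the receptor of Cxcl12, ran the other way. It was at 6.51, 6.76, 6.67 and 6.62 in LPA4-KO mice, against 6.37, 6.03, 6.35 and 6.05 in WT mice. No array of one genotype reached the other, which held for 28.4% of all varying probe sets. The difference was 0.44 ± 0.10 (limma adjusted p = 0.12, and adjusted p = 0.029 in the varying fit). Ccr3, Ccr8 and Cxcr2, the receptors of Ccl11, Ccl8 and Cxcl1, were nearly constant. Of 9 probe sets for 5 atypical receptors 4 varied, all with lower means in LPA4-KO. Limma called none of the 9 over all probe sets. An unadjusted p under 0.05 was found at the varying probe sets of Ackr1 and Ackr2 and at 2 nearly constant ones, of Ackr2 and Ackr4, where 16.1% of all probe sets had such a p. Ackr3, which scavenges Cxcl12, differed by -0.30 ± 0.14, Ackr1, which holds inflammatory chemokines on vessels and red cells, by -0.63 ± 0.24, Ccrl2 by -0.37 ± 0.16 and Ackr2, which clears inflammatory CC chemokines, by -0.67 ± 0.18 (limma adjusted p from 0.15 to 0.36). In the varying fit Ackr2 was lower (adjusted p = 0.026). The smallest p of that list was the nearly constant Ackr4. Except for Cxcr4 and Ackr4, which the rule for named genes picked, these receptors were singled out with their values known.

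**Figure D5:**
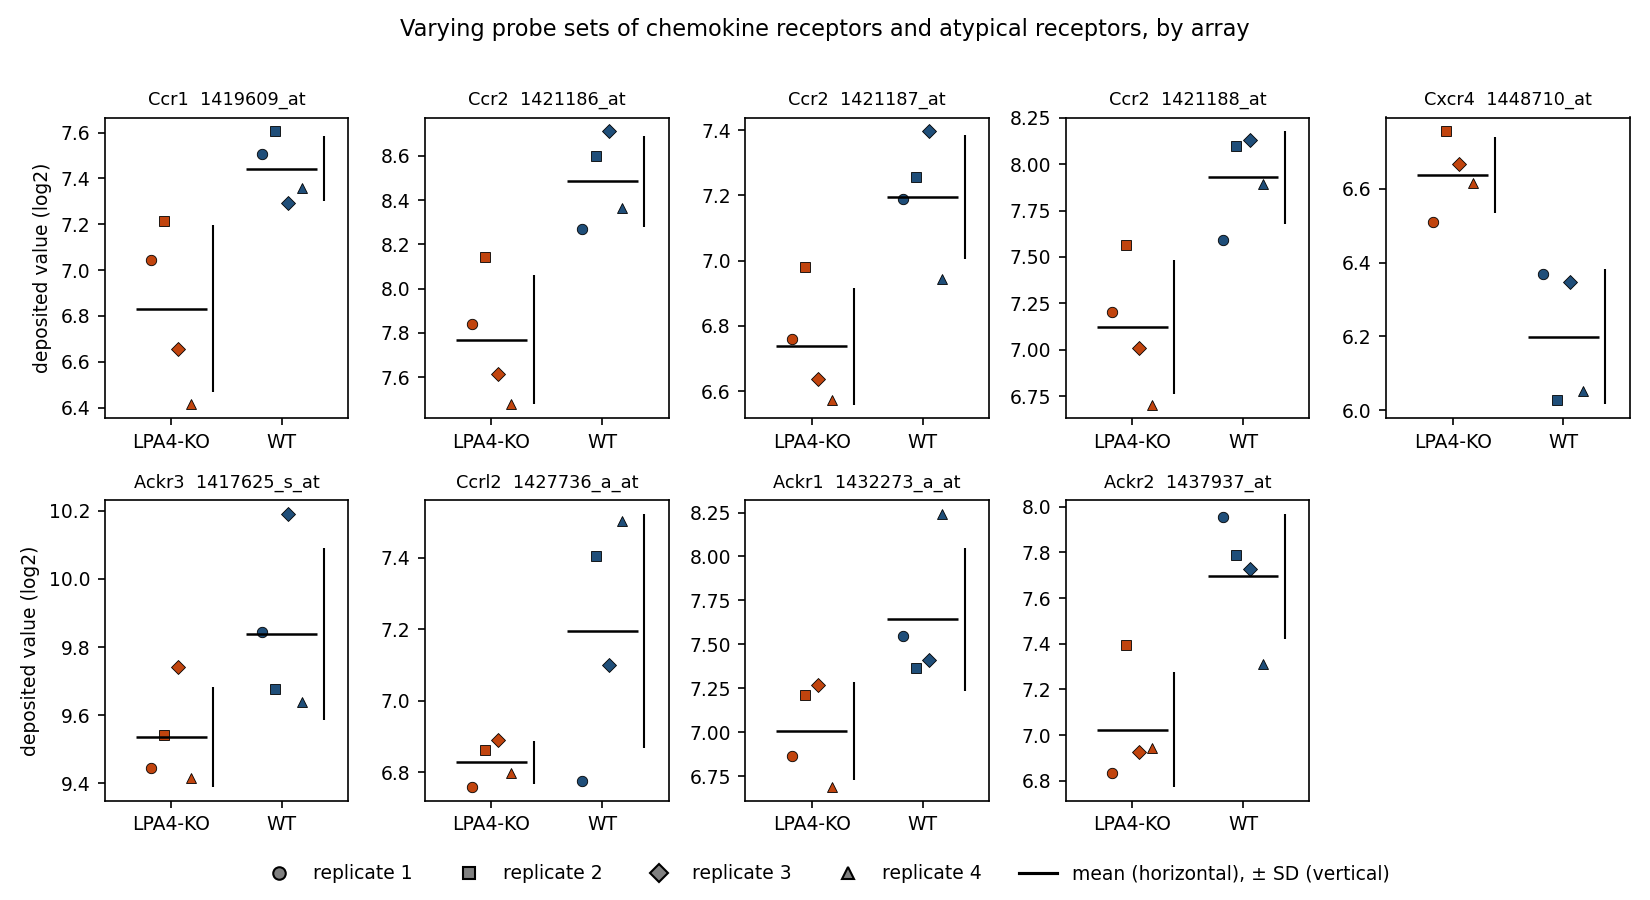
Deposited log2 values (vertical axis, its own scale in each panel) of the 9 varying probe sets of chemokine receptors and atypical receptors in the 4 LPA4-KO and 4 WT arrays; symbols are replicates, horizontal lines means and vertical lines ± SD. Ccr1 and 2 of the 3 Ccr2 probe sets lie lower in every LPA4-KO array, and Cxcr4 lies higher in every LPA4-KO array. Among all varying probe sets the groups do not overlap in 28.4%.

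Of the chemokines outside the 9, 15 probe sets of CC and 22 of CXC, CX3C and XC genes were measured, 3 and 8 of them varied, and none was called by limma, with 4 CC and 2 others at an unadjusted p under 0.05, nearly constant ones included, where 16.1% of all probe sets passed. Of the varying ones 2 CC and 6 others had a lower mean in LPA4-KO, and 1 CC and 2 others a higher one. Ccl24, or eotaxin-2, which like Ccl11 acts on Ccr3, had the smallest p of the varying ones. It was at 7.09, 7.31, 7.20 and 7.13 in LPA4-KO mice, against 7.45, 7.73, 7.84 and 7.71 in WT mice, with no overlap and a difference of -0.50 ± 0.09 (limma adjusted p = 0.083, and adjusted p = 0.016 in the varying fit). Ppbp, a platelet chemokine, differed by -0.61 ± 0.20 (adjusted p = 0.22 over all probe sets by limma, and 0.043 in the varying fit). Of the others that varied, Ccl5, a T cell chemokine, differed by 0.41 ± 0.16, Cxcl9, which interferon gamma induces, by 0.35 ± 0.19 at 1418652_at, and Cxcl10, which interferons also induce, by -0.91 ± 0.47. Cxcl10 had 1 high WT array, replicate 2 at 8.51, with every other array at 6.79 or lower. Cxcl13 differed by -0.75 ± 0.66 at 1417851_at and -0.70 ± 0.52 at 1448859_at, with WT replicate 1 highest at 9.60 and 9.14. Ccl3 differed by -0.17 ± 0.16 and Pf4 by -0.15 ± 0.099. The smallest p of the CXC, CX3C and XC list was the nearly constant Cxcl15, and those named here other than Ccl24 and Cxcl15 were chosen with their values seen.

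Among genes of NF-kappaB and inflammatory cytokines, 16 of 35 probe sets varied, 7 with a higher and 9 with a lower mean in LPA4-KO, and none of the 35 was called by limma over all probe sets, 7 having an unadjusted p under 0.05, nearly constant ones included, while the varying fit called 2 higher and 1 lower. The shares over the whole table were near these, 16.1% at such a p and 18.7% of all varying probe sets called in the varying fit. Nfkbia, the inhibitor of NF-kappaB and itself its target, had the smallest p, with 8.10 ± 0.08 in LPA4-KO and 7.75 ± 0.13 in WT mice at 1420089_at (difference 0.36 ± 0.07, limma adjusted p = 0.096). Nfkbia has further probe sets, 1420088_at, 1438157_s_at, 1448306_at and 1449731_s_at, which are not described here, so this difference stands for 1420089_at only. WT replicate 4, the animal highest in Cxcl1 and Ccl8, was also highest at Tnf, the cytokine, with 7.13 where the other 7 arrays were at 6.42 or lower, and at Icam1, an adhesion molecule, with 9.22 where the others were at 7.64 or lower. Cxcl2, a neighbour and close relative of Cxcl1, read 7.24 in that animal and at most 6.35 in the others. These 3 genes were singled out after their values were seen, and whether the state of that animal or of its sample bears on the values was not tested.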

How the data were processed

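RNA from the epididymal fat of 8 mice was measured on 1 array each. The authors deposited 1 value per probe set and array, used here as log2. R 2.14.0 is named in the submitters' processing notes. The sources used here do not give the background correction, normalization, summarisation or log base, and the log2 scale was read from the values (5.27 to 14.07). Gene names came from the platform annotation, and all 16 member probe sets matched the RefSeq table (GRCm38.p6) through the Entrez number.

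All 45037 probe sets that are not controls were fitted with limma 3.58.1 in R 4.3.3 (lmFit, eBayes with a trend), with Benjamini-Hochberg adjustment over all of them and calls at an adjusted p under 0.05. A second fit took the 7584 varying probe sets. Correlations and the probe set comparisons used exact permutations (SciPy 1.17.1). The fits were tested on simulated data with independent noise at each probe set, which does not reproduce spread shared across an array. The number of arrays limits the precision, and the labels call the replicates biological.

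The members and gene lists were chosen with earlier results of these data known. Named by rule are the 9 chemokines, called genes of the chemokine, receptor and NF-kappaB lists, the gene with the smallest p in each list, Lpar4 and the 3 genes most like the member with the smallest p. Other genes named from the lists were singled out with their values known. Alternatives were other filters, scalings, variance priors, weights per array, a block for the replicate number, 1 value per gene, and each array left out.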

Additional observations from a re-analysis of the deposited data

Results flagged for a closer look

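Dixon's test at the 95% level was run in each genotype for the 16 chemokine probe sets, 32 groups of 4 arrays, and chance marks about 1 in 20 such groups. It marked 4 arrays. At Cxcl1 1419209_at a single high array stood apart in both genotypes, LPA4-KO replicate 2 at 7.09 and WT replicate 4 at 7.23. At Ccl11 1417789_at LPA4-KO replicate 4 stood low at 9.50. At the nearly constant Cxcl1 1441855_x_at WT replicate 1 stood low at 7.073, in a group that spans under 0.1 log2.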

How the results depend on the processing

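By limma over all probe sets 0 chemokine probe sets were called, 2 at an unadjusted p under 0.05, and 0 also among probe sets above the median level, after median centring, without a trend, with robust estimation, with array weights, with the replicate block, per gene, and with any 1 array left out. With the varying probe sets alone 1 was called (Cxcl12 1417574_at), and 0 of these after either scaling or with the replicate block. In that fit with 1 array left out the count was 0 to 1, with Ccl6 1420249_s_at called without LPA4-KO replicate 2 and Cxcl12 1417574_at without LPA4-KO replicate 3, both chosen after seeing the data. Quantile normalization over all probe sets gave 8, the 6 nearly constant ones called higher by at most 0.018 log2, and Cxcl12 1417574_at and Ccl6 1420249_s_at called lower.

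The count of all probe sets called, 301 (196 higher, 105 lower), was 1417 for the varying probe sets alone (617 higher, 800 lower), 595 above the median level, 26275 after quantile normalization (24945 higher, 1330 lower), 458 with array weights and 3 with the replicate block. Among varying probe sets it was 1429 after quantile normalization, 1427 after median centring (793 higher, 634 lower) and 970 with the replicate block. With 1 array left out it ran from 0 to 112, and among varying probe sets it was 650, 644 and 728 without LPA4-KO replicates 2, 3 and 4, 1004, 655 and 773 without WT replicates 2, 3 and 4, and 530 to 1508 over all 8. The 0 came without WT replicate 4, where 6658 had an unadjusted p under 0.05. The Lpar4 1452424_at call was lost with the replicate block and without WT replicate 4 (limma adjusted p = 0.093 and 0.050). Lpar4 1434186_at was called higher in 4 of the alternatives and 1439665_at in 1.

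The labels do not say what the replicate numbers share. Deviations from the genotype mean of same-numbered arrays correlated at 0.06, 0.08, 0.27 and -0.19 for replicates 1 to 4, so the numbers were not taken as pairs, and of the LPA4-KO arrays only replicate 3 correlated best with its own number.

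The varying chemokine probe sets other than Ccl8 kept their direction under every alternative run. Ccl8 ranged from -0.29 to 0.24 with 1 array left out, and turned to 0.24 without WT replicate 4, 0.086 when LPA4-KO replicate 4 was left out and 0.032 when WT replicate 1 was, in both fits. Differences of nearly constant probe sets turned sign at sizes with no meaning: Cxcl12 1439084_at to 0.0061 after quantile normalization and 0.0043 after median centring, Ccl2 to -5.68e-06 with array weights, -3.16e-05 when LPA4-KO replicate 2 was left out and -3.44e-05 when WT replicate 1 was, Cxcl1 1441855_x_at to -1.03e-05 without WT replicate 1, and Ccl7 to -1.30e-06 without WT replicate 2. With 1 array left out the highest values were 5.90e-05 for Ccl2, 0.000249 for Ccl7 and 0.000206 for Cxcl1 1441855_x_at. The cause was not tested.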
